A study of Mus musculus with 2 samples.

Results

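Integrin chains were measured as transcripts in single γδ T cells sorted from mouse lung. The 10 chains were the α chains Itgae, Itgal, Itga4, Itgav, Itga1 and Itgax and the β chains Itgb2, Itgb1, Itgb7 and Itgb3, taken by gene symbol from 32285 genes, of which 26 were integrin chains on the lists used here. The WT library held Vγ1-negative cells of C57BL/6NCrl mice, and the KO library held Vγ1+ cells of B6.Cg-Tcrgtm1lku(B6.Vg4-/-Vg6-/-) mice, which lack Vγ4 and Vγ6 chains. All mice were uninfected and 5 to 7 weeks old, and the number of mice pooled per library was not given in the sources used here. Cells were grouped by the γ variable gene they carried: 520 WT cells with only Tcrg-V6 transcripts (WT V6), 410 WT cells with only Tcrg-V4 transcripts (WT V4) and 2880 KO cells with Tcrg-V1 transcripts (KO V1). Each set was then divided by detection of Tmem176b, a membrane protein gene known as a mark of IL-17-committed γδ cells, and of Ly6c2, a surface glycoprotein gene associated with memory and type 1 lymphocytes.

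Integrins are heterodimers of an α and a β chain that hold a lymphocyte in a tissue or on a vessel wall. The αE chain (CD103, Itgae) pairs with β7 and binds E-cadherin on epithelium. The α4 chain pairs with β7 to bind the gut addressin MAdCAM and with β1 to bind VCAM and fibronectin. The αL chain pairs with β2 to form LFA, the receptor for ICAM adhesion molecules, and αV pairs with β1 or β3 to bind matrix proteins and to release active TGF-β. The α1 chain pairs with β1 and binds collagen, and αX (CD11c) pairs with β2 and is best known from dendritic cells and macrophages.

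There was 1 library per group and no replicate, so differences are between these libraries, have no replicate check and carry no test. Values are counts per 1000000 (CPM) of UMIs (unique molecular identifiers, 1 per captured molecule) summed over a cell set, and intervals in brackets are exact 95% intervals that cover counting error only. Sort, genotype, strain and library cannot be told apart between WT and KO. The WT library held 9173997 UMIs and the KO library 26436826. The study's cell filter kept 2505 WT cells at a median of 3288 UMIs and 6634 KO cells at a median of 3521 UMIs, and 23 cell barcodes occurred in both libraries. No Tcrg-V6 UMI was found in the KO V1 cells, but 610 of them had a Tcrg-V4 UMI, which goes against the label, so the library is called KO-labelled below and KO V1 stands for its Tcrg-V1 cells. The cause of these UMIs was not tested. Cells with a Y-linked UMI numbered 133 of 520 in WT V6, 116 of 410 in WT V4 and 15 of 2880 in KO V1. The mix of male and female cells thus also differed between the libraries and cannot be told apart from them. All 7 γδ T cell markers (Trdc, Cd3e and others) were detected in the 3 sets, at a summed 3850 CPM in WT V6, 2595 CPM in WT V4 and 3162 CPM in KO V1. Of 9 myeloid markers, 5 were detected in WT V6 and 7 in each of the other sets, with summed levels of 327, 563 and 249.9 CPM and with Lyz1 and S100a8 at 0 in all 3.

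Itga4 (ENSMUSG00000027009, chromosome 2, 79255426 to 79333123, GRCm38) and Itgb7 (ENSMUSG00000001281, chromosome 15, 102215995 to 102231944) were the chains that differed most, and in opposite directions, with Tmem176b detection in KO V1, so the sequence before their transcription starts is given here. RefSeq (GRCm38.p6) entries were found for 6 of the 10 genes, and those of Itgae, Itgal, Itgb2 and Itgb3 are named only. Both sequences are 250 bases long, are written 5′ to 3′ on the strand of the gene and end at the base before the RefSeq start. They cover chr2:79255176-79255425 on the plus strand and chr15:102231936-102232185 on the minus strand. The RefSeq start of Itgb7 lies inside the gene as bounded above, which is from GENCODE, so the last 9 bases printed for it, including the GGGTG there, are within those bounds. Capitals in Itga4 mark the RUNX motif, ACCACA, which was searched on both strands, and capitals in Itgb7 mark the CACCC motif, which reads GGGTG on the other strand.
Itga4: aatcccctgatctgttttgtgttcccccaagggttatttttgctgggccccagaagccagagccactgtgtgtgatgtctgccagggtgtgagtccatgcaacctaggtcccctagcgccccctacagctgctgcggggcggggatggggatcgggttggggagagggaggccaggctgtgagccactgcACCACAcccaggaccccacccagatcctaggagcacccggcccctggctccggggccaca
Itgb7: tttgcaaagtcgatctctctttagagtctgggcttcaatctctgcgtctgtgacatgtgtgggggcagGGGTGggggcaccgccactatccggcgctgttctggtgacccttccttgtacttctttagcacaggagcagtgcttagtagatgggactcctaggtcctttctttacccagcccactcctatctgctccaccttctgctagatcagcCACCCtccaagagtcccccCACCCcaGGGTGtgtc
Itga4 held 1 RUNX match, 60 to 55 bases before the start, and it was the one chain of the 6 with such a match. Of 32851 mouse promoters of the same length, 14.0% held it. Itgb7 held 4 CACCC matches and no RUNX match, and Itga4 also held 4 CACCC matches, of which 1 overlapped the RUNX match. A CACCC match was found in 52.0% of promoters. These matches describe the letters only.

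WT V6 cells were set apart from WT V4 cells by more Itgav and Itgb1 and less Itgae. Itgav stood at 133 CPM (118 to 150) in WT V6, 36.6 CPM (27.8 to 47.4) in WT V4 and 29.3 CPM (26.5 to 32.4) in KO V1. Itgb1 stood at 188 CPM (170 to 209), 91.6 CPM (77.3 to 108) and 72.2 CPM (67.7 to 76.9) in the same order. For both chains the WT V6 interval lay above those of the other sets, which overlapped for Itgav. Itgae ran the other way, at 19.2 CPM (13.6 to 26.3) in WT V6, 53.7 CPM (42.9 to 66.4) in WT V4 and 40.04 CPM (36.7 to 43.6) in KO V1.

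Between the WT sets, Itgae was 2.80-fold higher in V4 cells (log2 ratio 1.48, 0.92 to 2.08), Itgav 3.64-fold lower (log2 ratio -1.86, -2.30 to -1.45) and Itgb1 2.06-fold lower (log2 ratio -1.04, -1.33 to -0.76). These were the 3 chains at or past 2-fold among the 8 with at least 30 UMIs over both sets, against 10.4% of 8133 genes. Itgb7 was 1.74-fold and Itgal 1.36-fold lower in V4 cells, whereas Itga4 was 1.43-fold and Itgb3 1.31-fold higher. Itgb2, the shared β chain of leukocyte integrins, was nearly level at 151.5 CPM in V6 and 149.7 CPM in V4 cells (log2 ratio -0.02, -0.27 to 0.23). Itgb1 alone among the 3 was under 2-fold with any other setting. Its log2 ratio was -0.60 without cells that had a Y-linked UMI. It was -0.89 without cells that had 3 or more myeloid or B cell marker UMIs, and -0.98 with 2 Tcrg-V UMIs required. The median log2 ratio was -0.23 over the 8 chains and 0.01 over all genes compared.

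**Figure D1:**
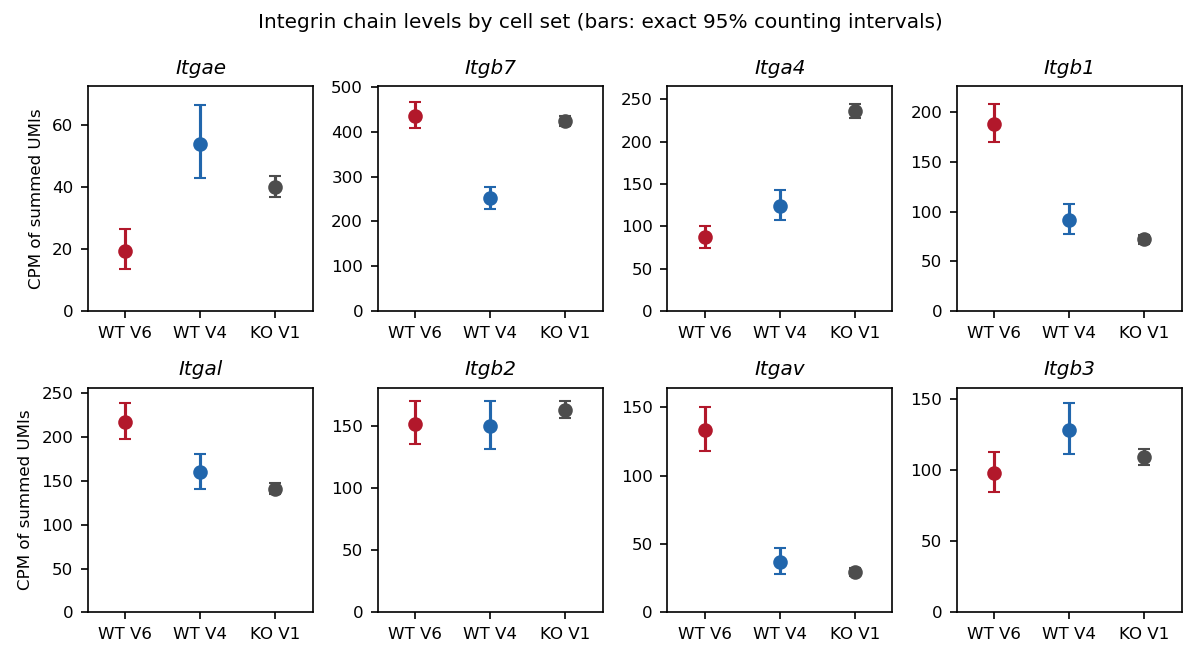
Levels of 8 integrin chains in CPM of summed UMIs (y axes, from 0) in WT V6, WT V4 and KO V1 cells (x axes). Points are the CPM of 1 library and bars are exact 95% counting intervals. Itgav and Itgb1 are highest in WT V6, Itga4 is highest in KO V1 at 236 CPM, and Itgb2 lies between 149.7 and 163 CPM in all 3 sets.

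Itga4 separated KO V1 cells from WT V6 cells in the opposite direction to Itgb1 and Itgav, in a comparison that shares its WT V6 cells with the one above. It stood at 86.9 CPM (74.4 to 101) in WT V6, 124 CPM (107 to 142) in WT V4 and 236 CPM (228 to 245) in KO V1, with no overlap between the 3 intervals. The ratio of KO V1 to WT V6 was 2.72-fold (log2 ratio 1.44, 1.22 to 1.67). Itgae was 2.09-fold higher in KO V1 (log2 ratio 1.06, 0.59 to 1.58), Itgb1 2.61-fold lower (log2 ratio -1.38, -1.56 to -1.21) and Itgav 4.55-fold lower (log2 ratio -2.18, -2.41 to -1.95). With Itga1, 5 of the 9 chains compared were at or past 2-fold, against 18.2% of 10780 genes. The Itga1 ratio rests on 2 UMIs in WT V6 and 33 in KO V1, and its interval of 0.617-fold to 20.8-fold includes no difference. The Itgae value was under 2-fold with 5 of the 10 other settings run on it, at the lowest a log2 ratio of 0.93, and the count of chains was 3 with 4 of them. Without cells that had a Y-linked UMI, Itgb1 fell just short of 2-fold. The medians were 0.10 over the 9 chains and 0.10 over all genes compared.

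Compared with WT V4 cells, which share the KO V1 cells with the comparison above, none of the 9 chains measured in KO V1 reached 2-fold, against 9.17% of 10754 genes. Itga4 came nearest at 1.91-fold higher (log2 ratio 0.93, 0.72 to 1.15), and it passed 2-fold with 3 other settings, with log2 ratios of up to 1.17. Itgb7 was 1.69-fold higher in KO V1 (log2 ratio 0.76, 0.61 to 0.91). It stood at 424 CPM (413 to 435) in KO V1, 436 CPM (408 to 466) in WT V6 and 251 CPM (227 to 277) in WT V4, so that the intervals of KO V1 and WT V6 overlapped and that of WT V4 lay below both. Itgal was highest in WT V6 at 217 CPM, against 159.8 CPM in WT V4 and 140.5 CPM in KO V1. Itgb3 lay between 98.0 CPM in WT V6 and 128 CPM in WT V4.

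**Figure D2:**
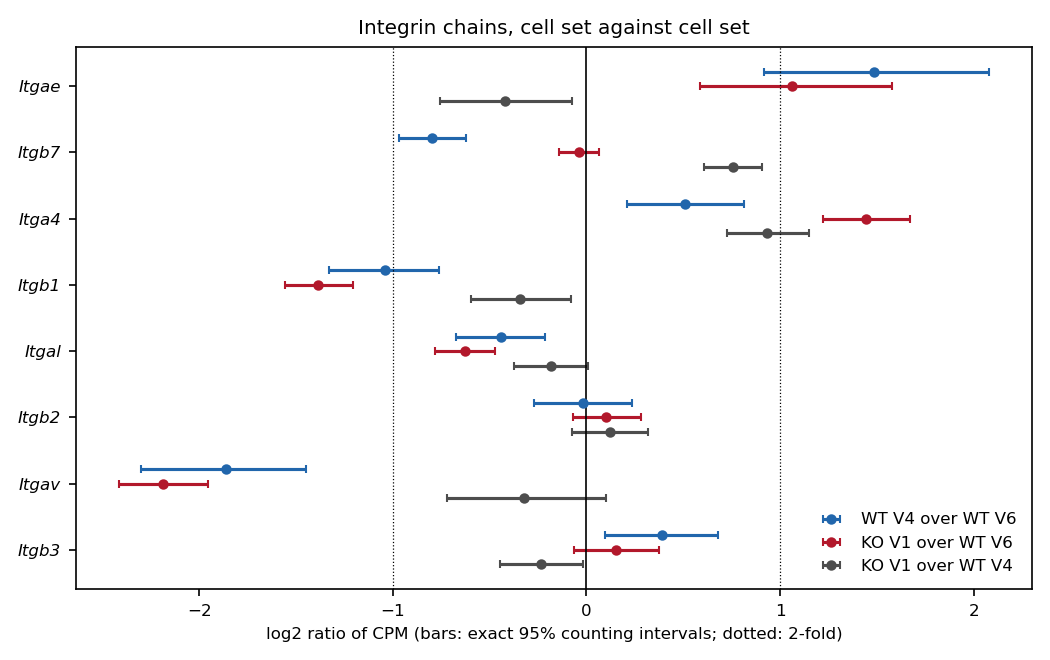
Log2 ratios of CPM (x axis) for 8 integrin chains (y axis) in 3 comparisons of cell sets, with exact 95% counting intervals as bars and dotted lines at 2-fold. Itgav and Itgb1 lie left of 0 in both comparisons with WT V6, down to -2.18, and no chain reaches a dotted line in KO V1 over WT V4.

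Detection per cell gave a similar order at equal depth. After each cell was thinned to 2000 UMIs, an Itga4 UMI was found in 11.8% (9.06 to 15.0) of WT V6, 13.0% (9.80 to 16.8) of WT V4 and 30.4% (28.7 to 32.2) of KO V1 cells, and without thinning in 17.3%, 21.0% and 45.1%. An Itgav UMI was found in 18.4%, 7.01% and 4.90%, and without thinning in 30.4%, 12.0% and 11.0%. An Itgae UMI was found in 3.11%, 11.4% and 6.14%, and without thinning in 5.00%, 15.9% and 12.9%. Thinning left out the shallower cells and kept 483 of WT V6, 385 of WT V4 and 2753 of KO V1. B-marked cells, which should lack Itgae, were few: 3 of 31 in the WT library had an Itgae UMI (9.68%, 2.04 to 25.8) at a median of 2134 UMIs, and 1 of 19 in the KO-labelled library (5.26%, 0.133 to 26.0) at a median of 3173 UMIs. The WT V6 share lay below that of the WT B-marked cells. The WT V4 share lay within the interval of the WT B-marked cells and the KO V1 share within that of the KO-labelled ones, and the WT B-marked level of 46.9 CPM (12.8 to 120.2, from 4 UMIs) was near the 53.7 CPM of WT V4. In WT myeloid-marked cells, 1 of 44 had an Itgae UMI (2.27%, 0.0575 to 12.0). The B-marked cells, with 4 and 1 Itgae UMIs, were too few to tell Itgae UMIs apart from free RNA in any of the 3 sets. Within the WT library Itgae stood at 19.2 CPM in WT V6 and 53.7 CPM in WT V4. In WT V4 it stood at 10.1 CPM with Ly6c2 and 73.5 CPM without. The part of free RNA in these values was not tested. The paper reported the αE protein on lung Vγ1 T cells with high CD44. The full-depth share of WT V4 (12.5 to 19.8) lay above the interval of the WT myeloid-marked cells, and that of WT V6 within it. In the KO-labelled library 4 of 37 myeloid-marked cells had an Itgae UMI (10.8%, 3.03 to 25.4), an interval that held the KO V1 share. A Cd3e UMI was found in 6 of the 31 WT and 7 of the 19 KO-labelled B-marked cells. The Itgae ratios are given with these limits. The 11.0% with Itgav in KO V1 lay within the interval of the 37 KO-labelled myeloid-marked cells (5.41%, 0.661 to 18.2).

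Itga1 and Itgax were close to undetected. Itga1, the collagen receptor chain, had 2 UMIs in WT V6, 4 in WT V4 and 33 in KO V1. Itgax had 1, 5 and 14 UMIs, and its 0.451% of KO V1 cells compares with no Itgax UMI in 31 WT and 19 KO-labelled B-marked cells. No ratio was formed for Itgax in the comparisons of sets, since it had fewer than 30 UMIs in each.

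Itga4 was lower and Itgb7 higher with Tmem176b in WT V4 and in KO V1 cells. In WT V4 cells Itga4 stood at 16.1 CPM (10 UMIs) in 168 cells with Tmem176b and 193 CPM (186 UMIs) in 242 cells without, a 12.0-fold difference (log2 ratio -3.58, -4.67 to -2.67). In KO V1 cells it stood at 99.3 CPM in 911 cells with Tmem176b and 306 CPM in 1969 without, 3.08-fold lower (log2 ratio -1.62, -1.77 to -1.48). Itgb7 was higher with Tmem176b, at 405 against 153 CPM in WT V4 (2.65-fold, log2 ratio 1.41, 1.11 to 1.71) and at 652 against 308 CPM in KO V1 (2.11-fold, log2 ratio 1.08, 1.01 to 1.16). In WT V4, 3 of 8 chains were at or past 2-fold, against 11.0% of 6127 genes, and in KO V1 2 of 9, against 11.6% of 10540 genes. Both Itga4 differences stayed past 2-fold with the 11 other settings run on each, from -5.32 to -2.15 in WT V4 and from -1.99 to -1.49 in KO V1 on the log2 scale. The Itgb7 difference in KO V1 was 0.98 with 2 Tcrg-V UMIs required. The setting with cells thinned also took the sets and Tmem176b detection again from the thinned UMIs. With it, no Itga4 UMI was left in WT V4 cells with Tmem176b, so the value with that setting is a bound set by a floor of 3 UMIs. The 9 myeloid markers summed to 439 CPM with and 644 CPM without Tmem176b in WT V4 (7 and 6 detected) and to 340.4 and 204 CPM in KO V1 (7 and 6 detected), with Lyz1 and S100a8 at 0 in all of these. The 5 NK markers summed to 59.7 CPM with and 351 CPM without Tmem176b in WT V4 (Klra8 and Ncr1 at 0, respectively) and to 25.6 and 96.9 CPM in KO V1 (Klra8 at 0 with Tmem176b). The 6 αβ T cell markers summed to 824 and 1149 CPM in WT V4 (Cd4 and Cd8a at 0 with Tmem176b) and to 769 and 1521 CPM in KO V1, where all 6 were detected. The part of these genes in the differences was not tested.

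Itgae, Itgb3 and Itgav differed less with Tmem176b. Itgae was 2.01-fold higher in WT V4 cells with Tmem176b (77.4 against 38.4 CPM) and 1.50-fold higher in KO V1 (51.4 against 34.2 CPM). The WT V4 value was under 2-fold with 4 other settings. With cells thinned and the sets and detection taken again from the thinned UMIs, its log2 ratio was -0.07. Itgb3 was 1.48-fold and 1.50-fold higher with Tmem176b in WT V4 and KO V1. Itgav was 1.69-fold higher in KO V1 (log2 ratio 0.76, 0.47 to 1.05) and 1.55-fold lower in WT V4, where the interval of -1.54 to 0.21 included no difference. Itgb2 stood at 98.4 CPM with and 183 CPM without Tmem176b in WT V4 (log2 ratio -0.89, -1.34 to -0.47) and at 182 and 153 CPM in KO V1 (log2 ratio 0.25, 0.12 to 0.37). The difference between these opposite directions was not tested. Itgb1 and Itgal differed by at most 1.30-fold in these comparisons. Among WT V4 cells without Ly6c2 the differences were smaller, with Itgae at 83.4 CPM with Tmem176b and 62.8 CPM without. Itgb3 stood there at 163 and 147 CPM and Itgb2 at 94.1 and 129 CPM. Among KO V1 cells without Ly6c2, Itgae stood at 54.5 and 39.5 CPM, Itgb3 at 143 and 94.4 CPM and Itgb2 at 176 and 140 CPM.

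Divided further by the number of Tmem176b UMIs in a cell, a division chosen after the values had been seen, Itga4 was lower at each step in KO V1. It stood at 306 CPM in cells with none, 181 CPM with 1, 102 CPM with 2 to 3 and 58.5 CPM with 4 or more. Thinned to 2000 UMIs, the KO V1 levels were 294, 103, 56.1 and 21.7 CPM. In WT V4 cells Itga4 stood at 193, 38.5, 3.32 and 8.97 CPM, the last of these from 1 UMI each. In WT V6 it stood at 104, 136, 97.5 and 69.6 CPM with overlapping neighbouring intervals. Thinned, the WT V6 levels were 148, 54.2, 80.5 and 54.5 CPM. There the intervals with none (96.5 to 216) and with 1 (28.8 to 92.6) did not overlap. At full depth, Itgb7 in KO V1 stood at 308, 483, 626 and 751 CPM in the same steps. In WT V4 it stood at 153 CPM with none and between 385 and 422 CPM in the rest. The median depth of KO V1 cells was 3967 UMIs with no Tmem176b UMI and 4930 with 4 or more.

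**Figure D3:**
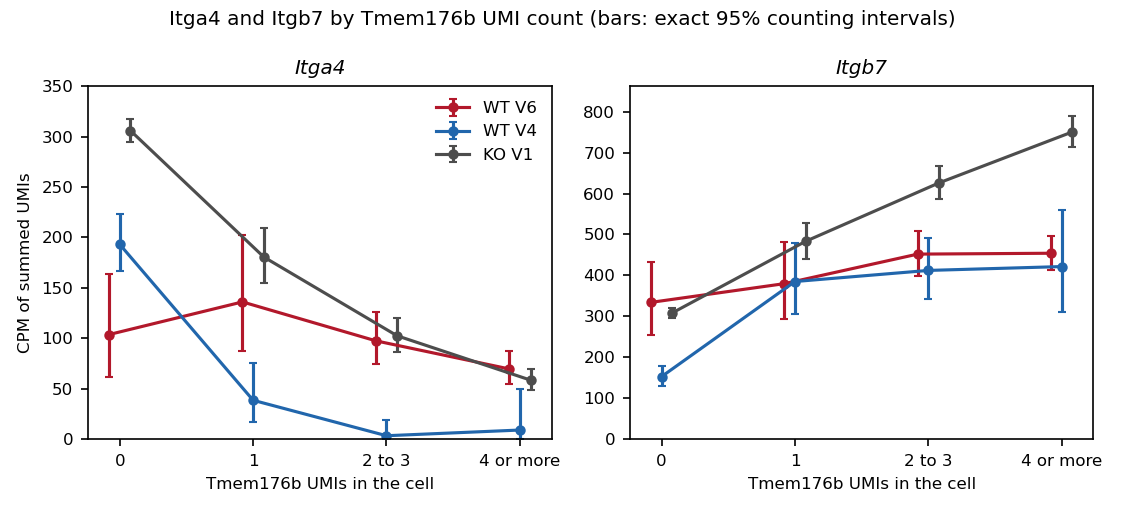
Itga4 and Itgb7 levels in CPM of summed UMIs (y axes, from 0) by the number of Tmem176b UMIs in a cell (x axes) in WT V6, WT V4 and KO V1 cells, with exact 95% counting intervals as bars. In KO V1, Itga4 goes from 306 to 58.5 CPM and Itgb7 from 308 to 751 CPM as Tmem176b UMIs increase.

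Cells with Tmem176b were also compared between the sets. Of the WT V6 cells 88.1% had a Tmem176b UMI, of WT V4 41.0% and of KO V1 31.6%. Among such cells, Itgae was higher in KO V1 than in WT V6 (51.4 against 16.6 CPM, log2 ratio 1.63, 1.08 to 2.23), Itgb1 2.93-fold lower (66.3 against 194 CPM) and Itgav 3.01-fold lower (40.3 against 121 CPM), and these 3 of 8 chains held their side of 2-fold with every other setting run on them. The share of all 9313 genes past 2-fold was 10.2%. Itga4 was close to level there, at 99.3 and 85.2 CPM (log2 ratio 0.22, -0.05 to 0.49). Against WT V4 cells with Tmem176b, Itga4 was 6.16-fold higher in KO V1 (99.3 against 16.1 CPM, log2 ratio 2.62, 1.73 to 3.69), the 1 chain of 8 past 2-fold, against 10.6% of 8907 genes. Its log2 ratio ranged from 1.14 with 2 Tcrg-V UMIs required to 3.99 with 2 Tmem176b UMIs required. Itgb2 was 1.85-fold and Itgb7 1.61-fold higher in KO V1 in that comparison.

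Comparisons added after the values had been seen placed WT V4 against WT V6 among cells with Tmem176b. Itgae was 4.66-fold higher in V4 (77.4 against 16.6 CPM), Itga4 5.29-fold lower (16.1 against 85.2 CPM), Itgav 4.42-fold lower (27.4 against 121 CPM) and Itgb1 2.01-fold lower (96.8 against 194 CPM), against 8.47% of 7108 genes past 2-fold. Among cells without Tmem176b, Itgb7 was 2.02-fold higher in KO V1 than in WT V4 (308 against 153 CPM) and Itga4 1.58-fold higher (306 against 193 CPM), with 1 of 8 chains at or past 2-fold and 9.54% of 9987 genes. Within WT V6, the 62 cells without Tmem176b had 2.14-fold more Itgav (259 against 121 CPM) and 2.77-fold more Itgae (46.1 against 16.6 CPM, from 8 UMIs) than the 458 with it, whereas the Itga4 interval included no difference (104 against 85.2 CPM, log2 ratio -0.28 with Tmem176b, -0.99 to 0.51) and Itgb7 was 1.34-fold higher with Tmem176b, with 2 of 8 chains at or past 2-fold, against 16.1% of 6613 genes. The cells without Tmem176b were shallower, at a median of 2620 UMIs against 3661. Thinned to 2000 UMIs, Itgav stood at 182 CPM with no Tmem176b UMI. It stood at 137.5, 80.5 and 109 CPM with 1, 2 to 3 and 4 or more. Itgae stood at 28.4, 20.8, 23.0 and 0 CPM in the same steps. The other settings were not run on these added comparisons.

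Over all cells of a set, Ly6c2 detection went with less Itgae and Itgb7 and more Itgb2. In WT V4 cells Itgae stood at 10.1 CPM (5 UMIs) in 103 cells with Ly6c2 and 73.5 CPM (80 UMIs) in 307 without, 7.27-fold lower (log2 ratio -2.86, -4.52 to -1.58). Itgb2 was 2.11-fold higher with Ly6c2 (234 against 111 CPM), Itgb7 2.06-fold lower (145.5 against 299.5 CPM) and Itgb3 2.26-fold lower (68.7 against 155 CPM). These were 4 of 8 chains at or past 2-fold, against 10.5% of 6127 genes. The median of all genes was -0.12 there, and Itgb7 was under 2-fold relative to it (log2 ratio -0.92). The summed level of 9 myeloid markers moved with this division, at 1287 CPM (6 detected, Lyz2 at 889 CPM, Lyz1, S100a8 and S100a9 at 0) with Ly6c2 and 234 CPM (7 detected, Lyz1 and S100a8 at 0) without. The 5 NK markers also moved with it, at 422 CPM (5 detected) with Ly6c2 and 153 CPM (3 detected, Ncr1 and Klra8 at 0) without, and their part was not tested. Without cells that had 3 or more myeloid or B cell marker UMIs the Itgb2 log2 ratio was 1.48, above the 1.08 of all cells. It was 0.84 without cells that had a Y-linked UMI and 0.93 with 2 Tcrg-V UMIs required. Among WT V4 cells without Tmem176b, Itgb7 stood closer, at 132 CPM with Ly6c2 and 169 CPM without. Itgae stood there at 9.13 and 62.8 CPM, Itgb2 at 247 and 129 CPM and Itgb3 at 61.7 and 147 CPM.

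Over all KO V1 cells the same directions were smaller. Itgae stood at 22.8 CPM in 623 cells with Ly6c2 and 45.4 CPM in 2257 without (1.99-fold, log2 ratio -0.99, -1.37 to -0.64), Itgb7 at 322 and 456 CPM, Itgb2 at 190 and 154 CPM and Itgb3 at 93.9 and 113.5 CPM. Itgb1 was 1.45-fold higher with Ly6c2 (log2 ratio 0.54, 0.33 to 0.73). Itga1 was 4.38-fold higher (log2 ratio 2.13, 1.06 to 3.24), from 19 UMIs with and 14 without Ly6c2, and was the 1 chain of 9 at or past 2-fold, against 5.87% of 10540 genes. Itgax had 10 UMIs with and 4 without Ly6c2, too few for the minimum. The 9 myeloid markers summed to 326 CPM with Ly6c2 (6 detected) and 226 CPM without (7 detected), and the 5 NK markers to 124 CPM with (5 detected) and 57.0 CPM without (4 detected, Klra8 at 0). The part of either list in these values was not tested.

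Between the Ly6c2-positive cells of both libraries, Itgb7 was 2.21-fold higher in KO V1 than in WT V4 (322 against 145.5 CPM, log2 ratio 1.14, 0.80 to 1.51) and Itga4 1.83-fold higher (263 against 143 CPM). Itgae was 2.25-fold higher, but from 5 UMIs in WT V4 and with an interval of 0.923-fold to 7.15-fold that includes no difference. The count was 2 of 8 chains, against 9.89% of 8217 genes, with a median of all genes of 0.11 on the log2 scale.

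Over the 9 groups of at least 50 cells made by set, Tmem176b and Ly6c2, Itga4 had the widest range, from 8.88 CPM in WT V4 with Tmem176b alone to 319 CPM in KO V1 with neither marker, 35.9-fold. Itgav followed, from 23.5 CPM in KO V1 with Ly6c2 alone to 295 CPM in WT V6 with neither. Itgae went from 9.13 to 83.4 CPM within WT V4, and Itgb7 from 132 CPM in WT V4 with Ly6c2 alone to 685 CPM in KO V1 with Tmem176b alone. Itgal had the narrowest range of the 8, 122 to 225 CPM. The 83 KO V1 cells with both markers had 199 CPM of Itga4 (162 to 241), between the 86.6 CPM of cells with Tmem176b alone and the 275.5 CPM of cells with Ly6c2 alone.

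**Figure D4:**
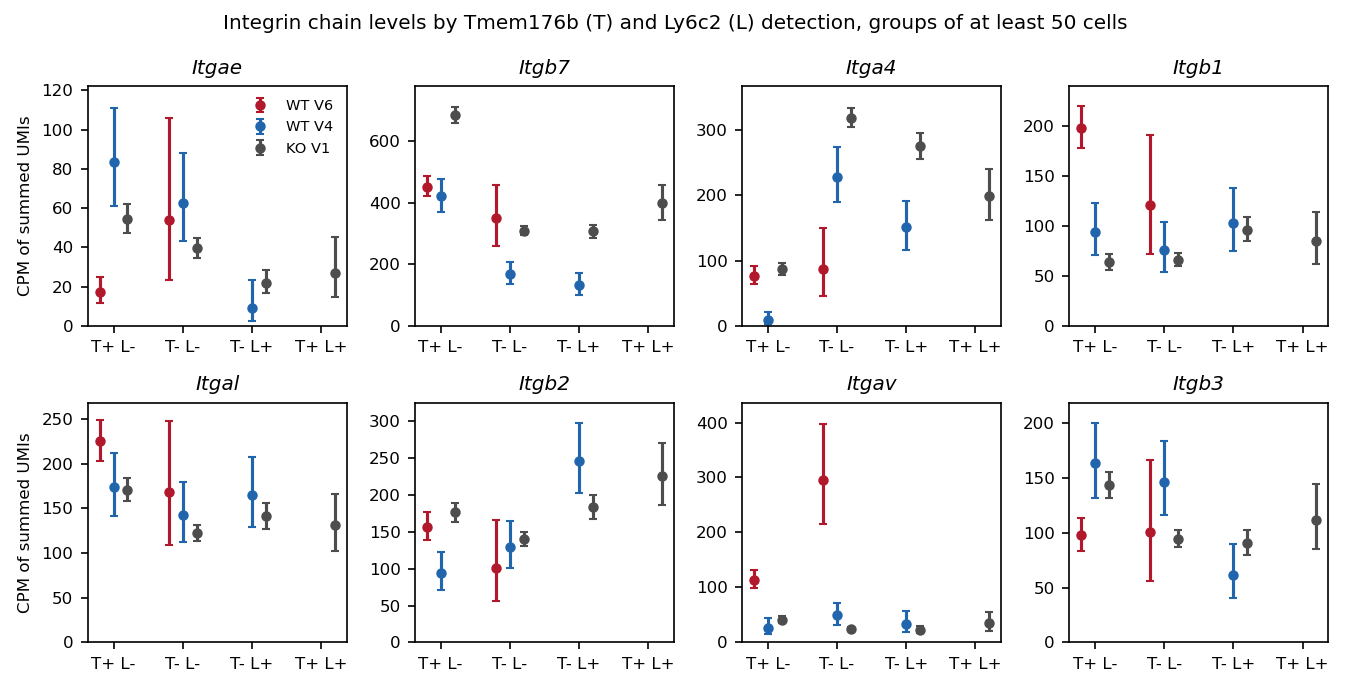
Levels of 8 integrin chains in CPM of summed UMIs (y axes, from 0) in cells grouped by detection of Tmem176b (T) and Ly6c2 (L), for groups of at least 50 cells in WT V6, WT V4 and KO V1, with exact 95% counting intervals as bars. Itga4 is lowest in WT V4 with Tmem176b alone (8.88 CPM), and Itgav is highest in WT V6 with neither marker (295 CPM).

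Across these 9 groups the chains of a heterodimer did not follow one another closely. Pearson's r of log2 levels, given as a description over groups that share 2 libraries, was 0.36 for Itgae and Itgb7, -0.41 for Itga4 and Itgb7, -0.30 for Itga4 and Itgb1, -0.18 for Itgal and Itgb2, -0.06 for Itgav and Itgb3 and 0.60 for Itgav and Itgb1. The highest and lowest values among the 8 chains were 0.88 for Itgae and Itgb3 and -0.80 for Itgae and Itgb2. Of 6185 genes compared, those most like Itga4 were Stambpl1 (r = 0.97), Inpp4b (0.96) and Cir1 (0.95), and those most like Itgb7 were Tor4a (0.97), Rarg (0.97) and Maz (0.96). The nearest genes were Tgfbr3, Osbpl9 and Rpp25l for Itgae, Rcor1, Inpp5d and Rock1 for Itgav, Sppl2a and H2-Q6 for Itgb1, Dhrs7, Bhlhe40 and Gpr183 for Itgal, Rpp14, Lta4h and Tpi1 for Itgb2, and Vps37b, Rhog and Por for Itgb3, with r from 0.83 to 0.99. They were picked as the highest of many values over few points.

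Within cells, the share with UMIs of both partner chains was set beside the product of their own shares, after thinning and at full depth. Itgae and Itgb7 were both detected in 3.89% (3.20 to 4.68) of thinned KO V1 cells, just above the product of 3.17%, and at full depth in 10.9% (9.82 to 12.1, product 9.39%). In WT V4 and WT V6 the interval held the product at both depths. Itga4 and Itgb7 were found together below the product in WT V4 at both depths, in 2.34% of thinned cells (1.07 to 4.39, product 4.92%) and in 7.56% at full depth (5.19 to 10.6, product 12.0%). In KO V1 their joint share depended on depth, being below the product in thinned cells (13.3%, 12.1 to 14.7, product 15.7%) and level with it at full depth (32.7%, 31.0 to 34.5, product 32.8%), and in thinned KO V1 cells without Tmem176b the interval held it (16.3%, 14.7 to 18.1, product 16.9%). In WT V6 the interval held the product at both depths. Itga4 and Itgb1 also gave no one answer, since the thinned WT V6 share lay just above the product (4.55%, 2.88 to 6.82, product 2.86%) and the full-depth interval held it (8.08%, 5.88 to 10.8, product 6.02%). Itgal and Itgb2 were found together above the product in KO V1 at both depths (thinned 6.72%, 5.81 to 7.72, product 5.66%), whereas the thinned intervals held it in WT V6 (8.07%, 5.80 to 10.9, product 8.38%) and WT V4 (7.01%, 4.67 to 10.04, product 5.36%). These products take the chains as independent within a set.

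Of 16 other integrin chains, 2 passed the minimum in WT V4 against WT V6 and 5 in KO V1 against WT V6, and 1 and 3 of these were at or past 2-fold, against 10.4% and 18.2% of all genes. Itgb4, the laminin receptor β chain, was lower in both, at 21.7 CPM in WT V6, 3.79 CPM in WT V4 (log2 ratio -2.52, -4.04 to -1.28) and 1.48 CPM in KO V1 (log2 ratio -3.88, -4.72 to -3.08). Itga5, the fibronectin receptor α chain, was lower in KO V1 than in WT V6 (3.18 against 10.1 CPM). Itga9 was higher there (4.65 against 2.02 CPM, log2 ratio 1.20, -0.22 to 3.12), from 4 UMIs in WT V6. In KO V1 against WT V4, none of the 4 that passed the minimum reached 2-fold.

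Of 24 genes on a list for integrin activation and linkage, 20 passed the minimum in each comparison of sets. The list does not separate genes that promote activation from genes that limit it. The adaptor Fyb stood out at 85.9 CPM in WT V6, 526 CPM in WT V4 (log2 ratio 2.61, 2.37 to 2.86) and 514 CPM in KO V1 (log2 ratio 2.58, 2.36 to 2.81). In WT V4 against WT V6, 3 of the 20 were higher past 2-fold (Fyb, Rasgrp2, an exchange factor for the GTPase Rap, and the kinase Stk4) and 1 lower (Cd226, 31.6 against 75.8 CPM), together 20% against 10.4% of all genes. In KO V1 against WT V6, 3 were higher (Fyb, Stk4 and the adaptor Skap1, 482 against 216 CPM), or 15.0% against 18.2% of all genes. Against WT V4 1 was higher (Itgb1bp1, 36.6 against 17.7 CPM), or 5.00% against 9.17%. The medians of the 20 were -0.02, 0.30 and 0.26, against 0.01, 0.10 and 0.07 over all genes. Of 9 ligand genes 3 passed the minimum and none of the 3 reached 2-fold in these comparisons of sets. Of 11 TGF-β response genes, all measured, Tgfbr2 was higher (325 against 155 CPM) and Smad7, an inhibitor of the pathway, lower (57.3 against 117 CPM) in KO V1 than in WT V6, which is 18.2% of the list and 18.2% of all genes. Smad7 was also lower in KO V1 than in WT V4 (137 CPM, log2 ratio -1.26, -1.48 to -1.04).

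In KO V1 cells divided by Tmem176b, all 4 other integrin chains that passed the minimum were past 2-fold, against 11.6% of all genes. Higher with Tmem176b were Itga5 (log2 ratio 1.73, 0.78 to 2.72, from 27 and 16 UMIs), Itga3 (1.59, 0.85 to 2.36, 40 and 26 UMIs) and Itga9 (1.48, 0.72 to 2.26, 37 and 26 UMIs). Itga6, a laminin receptor chain, was lower at 7.66 against 21.2 CPM (log2 ratio -1.47, -2.03 to -0.94). All 4 intervals reached under 2-fold. Of the ligand genes, Thy1 was higher with Tmem176b (1050 against 416 CPM), and of the TGF-β response genes Tgfb1 was (287 against 139.5 CPM). No gene of the activation and linkage list was past 2-fold in this division. Among cells with Tmem176b, KO V1 differed from WT V6 in genes of these lists too. Fyb stood at 331 against 72.0 CPM, Smad7 at 47.0 against 117 CPM and Itgb4 at 3.50 against 21.6 CPM.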

How the data were processed

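The deposited matrices hold counts of UMIs for each gene in each barcode, deposited by the authors after Cell Ranger (7.0.0 in the file headers, an older release in the methods) on mm10. The labels name a 3′ protocol, the methods a V(D)J kit. The matrices hold called cells, are not normalised and hold more cells after the stated filter than the study gives. Doublets were not called. The sources used here do not state a strand setting for counting. The members, lists and comparisons were chosen with earlier results of these data known.

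Cells were kept with over 200 and under 4000 genes and under 10% mitochondrial UMIs. UMIs were summed per set, as CPM of the sum, and log2 ratios were given with exact conditional 95% intervals over genes with at least 30 UMIs in both sets together, where at or past 2-fold means a log2 ratio of 1 or more in size. A set with 0 UMIs took a floor of 3. Shares were taken after thinning to 2000 UMIs (seed 1), leaving 380 cells of WT and 828 of the KO-labelled library out, with Clopper-Pearson intervals. B-marked and myeloid-marked cells had 5 or more UMIs over their list and no Tcrg-V UMI. For these shares the sets were those of full depth. The setting with cells thinned instead took the sets and marker detection again from the thinned UMIs. It held 484 WT V6, 271 WT V4 and 1754 KO V1 cells, so its values differ by both depth and cells. The setting without myeloid or B marker cells dropped those with 3 or more UMIs over both lists. These were 97 of WT V6, 58 of WT V4 and 515 of KO V1. Named genes were the members, listed genes past 2-fold (at most 4 per list and comparison of sets) and the 3 genes with the highest Pearson r of log2(CPM + 10), at 300 or more UMIs and r of at least 0.8, of which 1 is not reported here. Genes of the lists named by Tmem176b division, and markers, were named outside this rule. Of 32285 gene identifiers 32235 matched GENCODE. Python 3.11.15, numpy 2.4.6, scipy 1.17.1, pandas 2.3.3 and matplotlib 3.10.9 were used, and the steps were tested on simulated counts.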

Additional observations from a re-analysis of the deposited data

Results flagged for a closer look

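Itgb2 differed in opposite directions with Tmem176b detection in the 2 libraries: the log2 ratio was -0.893615 in WT V4 and 0.249517 in KO V1, and the difference between them was not tested. Among WT V4 cells without Ly6c2, Itgb2 stood closer, at 94.1 CPM with Tmem176b and 129 CPM without. Among such KO V1 cells it stood at 176 and 140 CPM. Itgax, absent from nearly all cells of the sets described, was found in 7 of 44 WT cells with myeloid marker UMIs and no Tcrg-V UMI (15.9091%, 6.64 to 30.1), at 37.2 CPM from 8 UMIs. None of the 37 such cells deep enough to be thinned had an Itgax UMI left (exact 95% interval up to 9.49%).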

How the results depend on the processing

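No paired analysis was possible because the groups compared have 1 library each and the labels carry no shared numbers. Of 864 member ratios recomputed with 11 other settings, 811 moved by less than their counting interval, 52 moved by more and 1 reversed: Itgae by Tmem176b in WT V4 was -0.0692627 with cells thinned to 2000 UMIs. Of 24 ratios at or past 2-fold, 23 kept their sign with every setting run on them (all but that one) and 15 stayed past 2-fold.

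The count of chains at or past 2-fold moved by more than 1.5 times as follows. For KO V1 minus WT V6 it was 3 in place of 5 with cells thinned, with KO cells that had only Tcrg-V1, without cells with Y-linked UMIs and without the deepest 5% of cells. For KO V1 minus WT V4 it was 1 (Itga4) in place of 0 with the mean of per-cell CPM and without the deepest 5%. It was also 1 without cells with 3 or more myeloid or B marker UMIs, called myeloid or B marker cells below. For Ly6c2 in KO V1 it was 2 (Itgae and Itga1) in place of 1 with no cell filter, without myeloid or B marker cells, with mean CPM and with 2 UMIs for detection, and 0 with 2 Tcrg-V UMIs, with only Tcrg-V1 and with at least 100 UMIs. For Ly6c2 in WT V4 it was 2 in place of 4 with 2 Tcrg-V UMIs. For KO V1 minus WT V4 among Tmem176b cells it was 2 in place of 1 with cells thinned and without myeloid or B marker cells, and among Ly6c2 cells 1 in place of 2 with 2 Tcrg-V UMIs, without the deepest 5% and with at least 100 UMIs. Part of this was that Itga1 fell below the minimum and was not counted. For KO V1 minus WT V6 this held with cells thinned, with only Tcrg-V1 and without the deepest 5%. For Ly6c2 in KO V1 it held with each setting that gave 0. Itgae likewise was not counted for Ly6c2 in WT V4 with 2 Tcrg-V UMIs, or among Ly6c2 cells with at least 100 UMIs. The rest of the cause was not tested.

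Depth limits Itga1 and Itgax in every set and Itga4 and Itgae in WT V4 classes with 10 UMIs or fewer. Requiring 2 Tcrg-V UMIs left 99 of the 410 WT V4 cells.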

Other observations

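Cells outside the 3 sets gave further values for the chains that differed most. In the WT library 84 cells had only Tcrg-V1 UMIs, although Vγ1 cells had been sorted away. Their Itga4 level was 251 CPM and their Itgb7 level 215 CPM. Of these, 17 cells with Tmem176b had 91.6 CPM of Itga4 and 67 without had 299 CPM.

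In cells with no Tcrg-V UMI, 268 WT cells with Tmem176b had 54.5 CPM of Itga4 and 826 without had 246 CPM, whereas Itgb7 stood at 353 and 149.5 CPM. In the KO-labelled library, 501 such cells with Tmem176b had 98.8 CPM of Itga4 and 2744 without had 276 CPM, and Itgb7 stood at 610 and 248 CPM. The 364 KO-labelled cells with only Tcrg-V4 UMIs had 216 CPM of Itga4, 391 CPM of Itgb7 and 19.3 CPM of Itgav. The 81 of them with Tmem176b had 123 CPM of Itga4 and 550.0 CPM of Itgb7, and the 283 without had 247.5 and 336 CPM.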
